A study of Rattus norvegicus with 10 samples.

Results

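Amino acid transporters are membrane proteins of the solute carrier (Slc) superfamily, and 53 genes of the families Slc1a, Slc3a, Slc6a, Slc7a, Slc36a, Slc38a and Slc43a were followed here in rat lens explants during FGF2-induced differentiation. Genes of these families were picked by symbol alone, out of 14217 genes with a symbol on the array. The choice was made with earlier results of these data known. Of their 72 probe sets, 1 was used per gene, the one with the highest mean log2 signal over the 10 arrays. A single one of the 53, Slc7a6os, matches by its symbol only and is a gene on the opposite strand that encodes no carrier, so 52 members encode carriers or their subunits.

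The explants, sheets of lens capsule carrying epithelial cells, came from 3-day-old rat pups and were cultured 6 to an assay. All of them first spent a night in medium with 5 ng/mL FGF2, and this is the 0 hr reference. The others were then given 100 ng/mL of recombinant FGF2, a dose that starts fiber cell differentiation, for 2, 4, 12 or 24 hr. There were biological duplicates, that is 2 arrays, at every time point. No explants were kept at 5 ng/mL for the same hours, so effects of the dose and of time in culture cannot be told apart. In the array names given by the study the 0 hr arrays, the 2 and 4 hr arrays and the 12 and 24 hr arrays carry separate runs of numbers, so any difference between those runs and the time points cannot be told apart either, except for 4 against 2 hr and 24 against 12 hr. Signals are RMA intensities (robust multichip average) taken to log2, where a difference of 1 means a 2-fold change. Each was fitted with limma over all 10 arrays, and a member was called higher or lower where its p, adjusted by the Benjamini-Hochberg method over 31042 probe sets, was under 0.05. The explants are bulk samples, in which fewer cells of a type and less RNA per cell cannot be told apart, and no level is compared between genes.

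The lens has no blood supply, and its cells take up amino acids from the surrounding humors for protein synthesis, for glutathione and for osmotic balance. Slc1 proteins move glutamate or small neutral amino acids with sodium, Slc38 and many Slc6 proteins move neutral amino acids, taurine and related solutes with sodium, Slc36 proteins use protons, and Slc43 proteins work without an ion gradient. Most Slc7 proteins are light chains that reach the cell surface only when bound to a heavy chain, Slc3a2 (4F2hc) or Slc3a1 (rBAT), while Slc7a1 to Slc7a3 carry cationic amino acids on their own.

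Against 0 hr members were called in both directions at each time point. At 2 hr 3 members were higher and 7 lower than at 0 hr, beside 8.61% and 8.88% of all probe sets. At 4 hr 6 were higher and 5 lower, where 11.9% of probe sets were called in each direction. At 12 hr the counts were 5 higher and 8 lower (8.94% and 10% of probe sets), and at 24 hr they were 4 and 13 (9.29% and 10.9%). The median log2 difference of the members from 0 hr lay between -0.04 at 4 hr and 0.03 at 24 hr, while over all probe sets it lay between -0.02 and 0.03. In all, 26 of the 53 were called at some time point. They were 19 of the 25 members above the median level of all probe sets, and 7 of the 28 at or below it. Those 7 were Slc1a2, Slc1a6, Slc3a1, Slc43a1, Slc6a3, Slc6a17 and Slc7a4. Members are the brightest probe set of their gene, while the shares cover all probe sets, so the 2 are not alike in level. Slc1a1 and Slc38a4 were lower at every time point, and Slc7a8 was the only member called higher at one time point and lower at another.

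Counts changed when single arrays were left out, those of the reference among them. Such a fit keeps a lone array at that time point, so a lost call does not tell an unusual array apart from lower precision. Without 0 hr replicate 1 or replicate 2 the members called were 1 and 1 higher and 2 and 3 lower at 2 hr, 3 and 3 higher at 4 hr, 2 and 2 higher and 5 and 4 lower at 12 hr, and 8 and 9 lower at 24 hr. Other single arrays also mattered. The count was 4 lower at 2 hr without 2 hr replicate 2, 3 higher at 4 hr without 4 hr replicate 2, 2 higher at 12 hr without 12 hr replicate 1, and 4 and 5 lower at 12 hr without 12 hr replicate 1 and replicate 2. The calls that held whichever array was left out were 3 of 10 at 2 hr, 7 of 11 at 4 hr, 6 of 13 at 12 hr and 11 of 17 at 24 hr. Where a member has several probe sets, 11 of 17 calls were shared by another probe set, and none had another probe set called the opposite way.

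**Figure D1:**
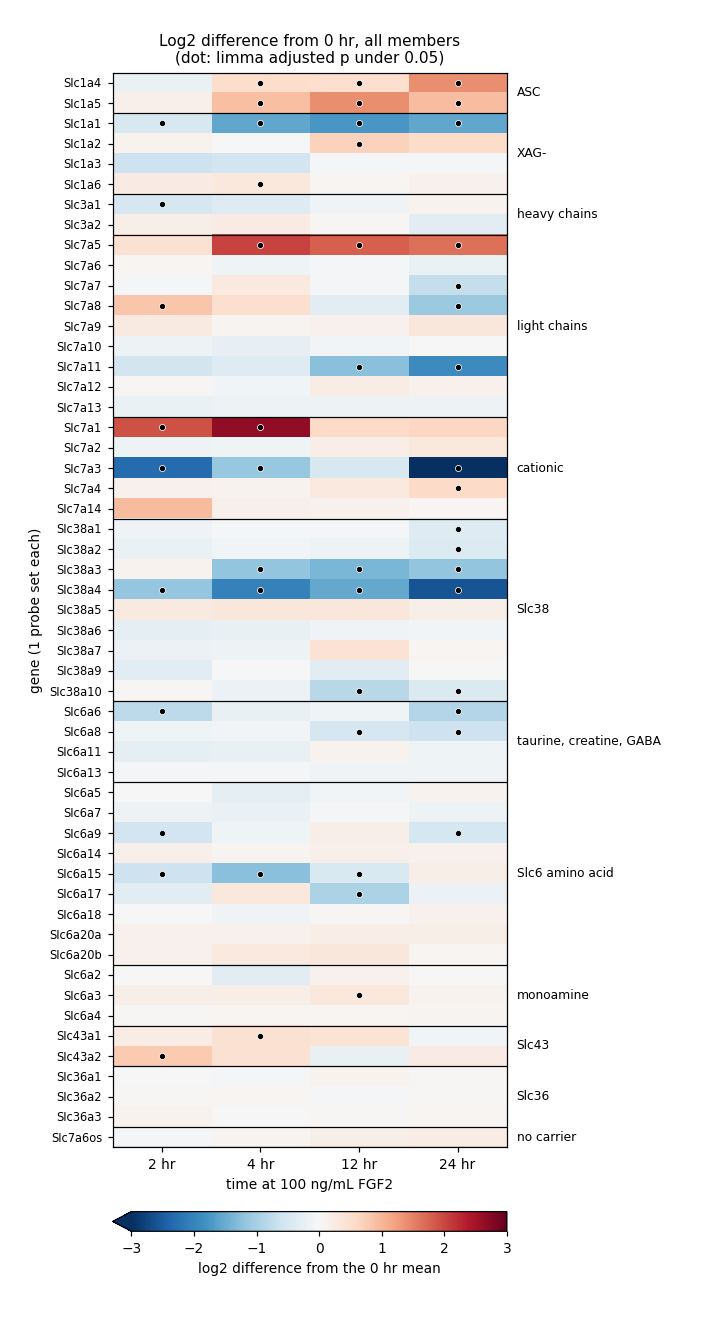
Log2 difference from the 0 hr mean (colour) for each of the 53 genes (rows, grouped by role) at 2, 4, 12 and 24 hr of 100 ng/mL FGF2 (columns), with a dot where limma called the gene. Slc7a1 stands out as the largest rise (2.66 at 4 hr), Slc7a3 as the largest fall (-3.29 at 24 hr, past the end of the colour scale), and the Slc36 rows hold no dot.

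**Figure D2:**
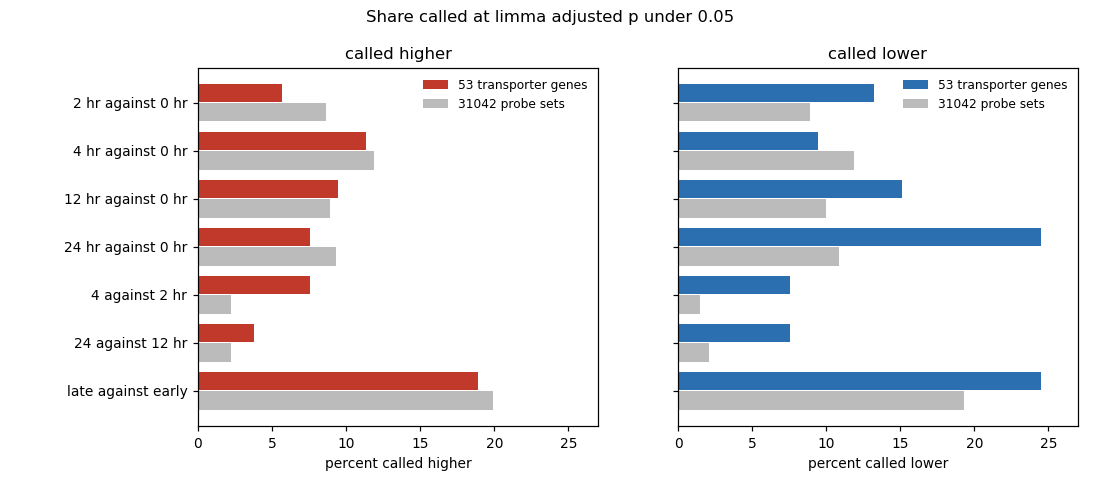
Percent of the 53 transporter genes (coloured bars) and of all 31042 probe sets (grey bars) called higher (left) or lower (right) in each of 7 comparisons. At 24 hr 13 of 53 members were called lower beside 10.9% of probe sets, and at 4 hr 6 were called higher beside 11.9%. The members are the brightest probe set of their gene, and the grey bars cover probe sets of any level.

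The arrays had median intensities between 98 and 100.3. The log2 ratio of the 5′ to the 3′ control probe sets of Actb, a sign of RNA length, was -1.12 and -1.21 at 0 hr and lower at every other time point, down to -2.13 on 2 hr replicate 2. Its part in the differences from 0 hr was not tested beyond a fit with this ratio as a covariate. As the ratio was lower at every later time point than at 0 hr, that fit cannot fully tell the ratio apart from time. Some calls were lost in it with a larger difference from 0 hr and others with a smaller one. With that covariate 1 member was higher and 3 were lower at 2 hr, and 3 were higher at 4 hr. The 6 markers of lens epithelium, Pax6 and Foxe3 among them, summed to intensities between 30281 and 36422, and the 9 fiber markers to between 12975 and 22843. Of the 6 epithelial markers 1, 1, 2 and 4 were called lower and 0 (0 unadjusted), 0 (0 unadjusted), 1 and 1 higher by limma at 2, 4, 12 and 24 hr, with a median log2 difference of -0.50 at 24 hr. Of the 9 fiber markers 1, 4, 4 and 0 (1 unadjusted) were lower and 1, 1, 0 (0 unadjusted) and 0 (1 unadjusted) higher, with a median of -0.60 at 12 hr. Melanocyte and pigment epithelium markers (6) summed to no more than 205 and macrophage markers (6) to no more than 377, and limma called none of these 12 at any time point (at an unadjusted p under 0.05, 3 at 2 hr and 1 at 4 hr). Of other cell types, 3 endothelial markers summed to between 1058 and 1378 at 0 hr and between 719 and 768 at 24 hr, and 2 erythrocyte markers to between 2129 and 2167 and between 1292 and 1468 at these times. The endothelial markers differed in direction, with 1 called higher and 1 lower at 12 hr (log2 differences from -1.63 to 1.21). At 24 hr their differences ran from -1.57 to 0.67. The erythrocyte sums at 2 hr were 1997 and 3586. The 4 fibroblast markers summed to between 8991 and 13218 and the 5 retinal markers to between 291 and 389. The part of these cell types in the results was not tested.

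The exchangers that feed large and small neutral amino acids into the cell were among the members that rose. Slc1a4 (ASCT1), Slc1a5 (ASCT2, a glutamine exchanger) and Slc7a5 (LAT1, which brings in leucine and other large neutral amino acids) were higher at 4, 12 and 24 hr, and none of them was called at 2 hr. Slc7a5 read 8.95 and 8.74 at 0 hr, 9.56 and 9.06 at 2 hr, 10.72 and 11.01 at 4 hr, 10.63 and 10.62 at 12 hr, and 10.57 and 10.42 at 24 hr. All arrays from 4 hr on lay above all 4 arrays at 0 and 2 hr, with no overlap. The rise was 4.05-fold at 4 hr (log2 difference 2.02 ± 0.17, SE, n = 2 arrays per time point, adjusted p = 0.000117), 3.44-fold at 12 hr (adjusted p = 0.000267) and 3.15-fold at 24 hr (adjusted p = 0.000363). These calls held whichever array was left out.

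Slc1a5 read 8.93 and 8.70 at 0 hr, 9.22 and 8.72 at 2 hr, 9.74 and 9.67 at 4 hr, 10.09 and 10.34 at 12 hr, and 9.75 and 9.71 at 24 hr. The 2 hr arrays overlapped those at 0 hr, and all later ones were above them. It was 1.86-fold higher at 4 hr (0.89 ± 0.17, SE, adjusted p = 0.00504), 2.64-fold at 12 hr (adjusted p = 0.000711) and 1.89-fold at 24 hr (adjusted p = 0.00528). Slc1a4, which exchanges alanine, serine and cysteine, read 10.26 and 10.23 at 0 hr, 10.03 and 10.06 at 2 hr, 10.61 and 10.92 at 4 hr, 10.69 and 10.81 at 12 hr, and 11.74 and 11.53 at 24 hr. Its 24 hr arrays were the highest of the 10 and its 2 hr arrays the lowest. The difference at 24 hr was 2.62-fold (1.39 ± 0.12, SE, adjusted p = 0.000168). The smaller rises at 4 hr (0.52) and 12 hr (0.50) were not called without either 0 hr array, without 4 hr replicate 2 in the first case (adjusted p 0.0700 to 0.0835), or without either 12 hr array in the second (0.0682 to 0.132). The 4 hr call was lost as well with the Actb ratio as a covariate (0.36, adjusted p = 0.132) and in a fit of the 0 and 4 hr arrays alone (adjusted p = 0.0531).

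**Figure D3:**
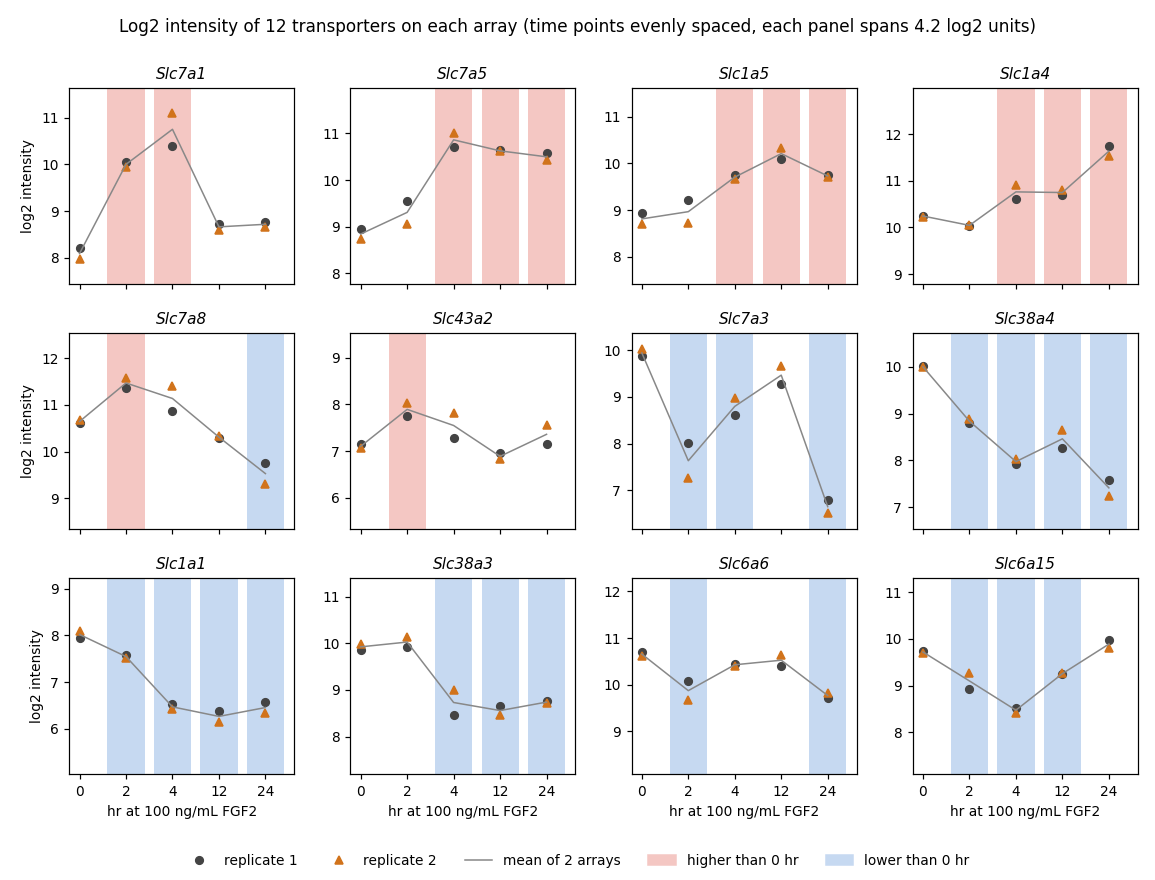
Log2 intensity of 12 transporters (panels) on each of the 10 arrays, with circles for replicate 1, triangles for replicate 2, a line through the mean of the 2 arrays, and shading where limma called the time point higher (red) or lower (blue) than 0 hr. Slc7a1 peaked at 2 and 4 hr, Slc7a5, Slc1a5 and Slc1a4 were high from 4 hr on, Slc7a3 had its lowest arrays at 24 hr (6.79 and 6.51), and Slc7a8 was above 0 hr at 2 hr and below it at 24 hr.

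The other carriers of large neutral amino acids behaved otherwise. Slc7a8 (LAT2), a light chain with a broad range of neutral substrates, read 10.61 and 10.68 at 0 hr, 11.36 and 11.58 at 2 hr, 10.87 and 11.40 at 4 hr, 10.29 and 10.34 at 12 hr, and 9.76 and 9.30 at 24 hr. Both early time points lay above 0 hr and both late ones below it, without overlap. It was 1.77-fold higher at 2 hr (0.82 ± 0.19, SE, adjusted p = 0.0209) and 2.17-fold lower at 24 hr (-1.12, adjusted p = 0.00442). The 2 hr call was lost without either 0 hr array or 2 hr replicate 2 (adjusted p 0.0887 to 0.119) and with the Actb ratio as a covariate (0.40, adjusted p = 0.377). Slc43a2 (LAT4), which lets large neutral amino acids pass down their gradient, read 7.15 and 7.06 at 0 hr, 7.76 and 8.03 at 2 hr, 7.29 and 7.82 at 4 hr, 6.95 and 6.83 at 12 hr, and 7.16 and 7.56 at 24 hr. Its arrays were above the reference at every time point but 12 hr, where both were below. It was called at 2 hr only, 1.73-fold higher (0.79 ± 0.19, SE, adjusted p = 0.0235), and its other probe set was called too (1.34). That call was lost without either 0 hr array or 2 hr replicate 2 (adjusted p 0.0994 to 0.125), and with the Actb covariate (0.27, adjusted p = 0.472). Slc43a1 (LAT3) read 4.58 and 4.53 at 0 hr, 4.81 and 4.75 at 2 hr, 5.09 and 4.93 at 4 hr, 5.17 and 4.74 at 12 hr, and 4.41 and 4.56 at 24 hr. The arrays from 2 to 12 hr lay above the reference and those at 24 hr overlapped it. Slc43a1 was called at 4 hr (1.37-fold, adjusted p = 0.0432), a call that held without either 12 hr array and was lost without any other single array (0.0525 to 0.181). It was also lost with array quality weights (0.46, adjusted p = 0.0784) and with the Actb covariate (0.59, adjusted p = 0.0526).

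Slc3a2 is the heavy chain that carries 6 light chains to the plasma membrane. At 24 hr it moved less than Slc7a5, Slc7a7, Slc7a8 and Slc7a11 and more than Slc7a6 and Slc7a10. It read 12.65 and 12.65 at 0 hr, 12.81 and 12.84 at 2 hr, 12.77 and 13.02 at 4 hr, 12.72 and 12.66 at 12 hr, and 12.41 and 12.22 at 24 hr. The arrays at 2 and 4 hr were above those at 0 hr and the 24 hr arrays below, and no time point was called (log2 differences 0.17, 0.24, 0.04 and -0.34, SE 0.11). The difference at 24 hr had an adjusted p of 0.0566 and was called, among other settings, after quantile normalization (-0.35, adjusted p = 0.0354). Slc7a11 (xCT), the light chain that exchanges glutamate for cystine, read 10.38 and 10.65 at 0 hr, 10.18 and 9.76 at 2 hr, 10.29 and 9.98 at 4 hr, 9.37 and 9.14 at 12 hr, and 8.14 and 9.09 at 24 hr. All 8 later arrays were below both reference arrays. Slc7a11 was 2.39-fold lower at 12 hr (-1.26 ± 0.28, SE, adjusted p = 0.0148) and 3.73-fold lower at 24 hr (-1.90, adjusted p = 0.00211). The 12 hr call was lost without either 0 hr or either 12 hr array (adjusted p 0.0535 to 0.104), and the 24 hr call held.

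Slc7a7 (y+LAT1), which exports cationic for neutral amino acids, read 7.08 and 7.06 at 0 hr, 7.06 and 6.99 at 2 hr, 7.12 and 7.62 at 4 hr, 7.17 and 6.90 at 12 hr, and 6.44 and 6.27 at 24 hr. Only its 24 hr arrays stood clear below the others. It was 1.64-fold lower at 24 hr (-0.71 ± 0.16, SE, adjusted p = 0.0141), a call lost without either 0 hr array or 24 hr replicate 2 (0.0749 to 0.0973). Its relative Slc7a6 (y+LAT2) read 10.24 and 10.22 at 0 hr, 10.25 and 10.33 at 2 hr, 10.14 and 10.05 at 4 hr, 10.19 and 10.14 at 12 hr, and 10.04 and 10.03 at 24 hr. Its 10 arrays stayed within a narrow range and it was called at no time point. Slc7a10 (asc-1), a carrier of small neutral amino acids, read 5.31 and 5.35 at 0 hr, 5.17 and 5.17 at 2 hr, 5.02 and 5.16 at 4 hr, 5.32 and 5.17 at 12 hr, and 5.20 and 5.49 at 24 hr. Its arrays stayed close together and it was not called either. Thus of the 6 partners of Slc3a2, Slc7a5 was the only one higher at 24 hr, while Slc7a7, Slc7a8 and Slc7a11 were lower. Slc7a12 and Slc7a13, light chains of other partners, were not called.

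**Figure D4:**
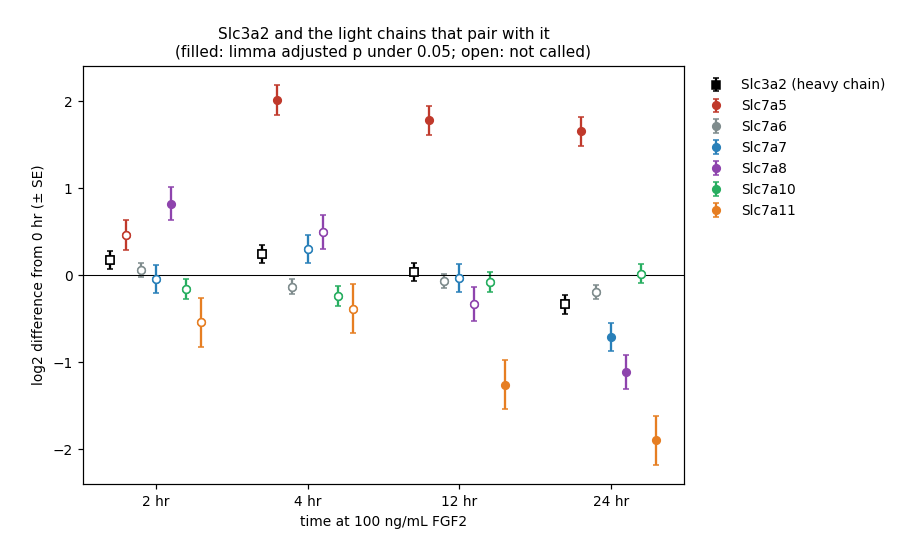
Log2 difference from 0 hr (± SE of the limma fit, 2 arrays per time point) of Slc3a2 (squares) and of the 6 light chains that pair with it (circles) at 2, 4, 12 and 24 hr, filled where called. Slc7a5 stood at 1.65 and Slc7a11 at -1.90 at 24 hr, with Slc3a2 at -0.34 and not called.

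The cationic amino acid carriers gave the largest changes in either direction among the 53. Slc7a1 (CAT1), the widespread arginine and lysine carrier, read 8.21 and 7.97 at 0 hr, 10.05 and 9.95 at 2 hr, 10.40 and 11.10 at 4 hr, 8.73 and 8.59 at 12 hr, and 8.77 and 8.67 at 24 hr. Every array under 100 ng/mL FGF2 was above the reference arrays, with the 2 and 4 hr arrays above all others. Slc7a1 was 3.76-fold higher at 2 hr (1.91 ± 0.20, SE, adjusted p = 0.000600) and 6.32-fold at 4 hr (2.66, adjusted p = 6.65e-05). A second probe set was called at both times (1.27 and 2.00), whereas another stayed uncalled (0.09 and 0.17), and the mean of all 3 was called at both (1.09 and 1.61). The differences at 12 hr (0.57, adjusted p = 0.0832) and 24 hr (0.63, adjusted p = 0.0573) were not called, and both were in a fit without the 2 and 4 hr arrays (adjusted p = 0.00700 and 0.00465).

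Slc7a3 (CAT3), a carrier of the same substrates, went the other way. It read 9.87 and 10.02 at 0 hr, 8.0 and 7.26 at 2 hr, 8.61 and 8.99 at 4 hr, 9.28 and 9.65 at 12 hr, and 6.79 and 6.51 at 24 hr. The reference arrays were the highest, those at 24 hr the lowest and those at 2 hr the next lowest, with no overlap between time points. It was 4.96-fold lower at 2 hr (-2.31 ± 0.24, SE, adjusted p = 0.000619), 2.21-fold at 4 hr (adjusted p = 0.00939) and 9.80-fold at 24 hr (-3.29, adjusted p = 7.93e-05), while the 12 hr difference of -0.48 was not called (adjusted p = 0.233). Of these the 4 hr call was lost without 0 hr replicate 2 (-1.07, adjusted p = 0.0661) or 4 hr replicate 1 (-0.96, adjusted p = 0.0505), and with the Actb covariate (-1.12, adjusted p = 0.0509). Slc7a4, a family member without established transport, read 4.13 and 4.12 at 0 hr, 4.47 and 4.05 at 2 hr, 4.28 and 4.19 at 4 hr, 4.38 and 4.44 at 12 hr, and 4.82 and 4.60 at 24 hr. The 24 hr arrays were the highest of the 10. It was higher at 24 hr (0.58, adjusted p = 0.0190), which was lost without either 0 hr array or 24 hr replicate 1 (0.0932 to 0.116). Slc7a2 (CAT2) and the lysosomal Slc7a14 were not called, and the 2 arrays of Slc7a14 at 2 hr lay far apart (4.50 and 6.26).

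Windows upstream of the members were searched for short motifs. Stretches are printed for Slc7a1, Slc1a4, Slc7a5 and Slc43a1, which were higher at 4 hr, and for Slc38a1, which was not. Whether any motif has a part in the changes was not tested. Slc1a5 and Slc1a6 were higher at 4 hr as well. The RefSeq start windows used (assembly GRCr8, 250 bases before to 50 after a start) cover 41 of the 53 members, the others being Slc1a1, Slc1a5, Slc38a3, Slc38a10, Slc6a2, Slc6a4, Slc6a13, Slc6a15, Slc7a2, Slc7a3, Slc7a4 and Slc7a13. A C/EBP-ATF response element core (TGATGNAA, or TTNCATCA for the other strand, N being any base) was found in 3 of the 41 members (7.32%), beside 4.16% of the 27457 genes with a window. Each window is read 5′ to 3′ on the strand of its gene, with the core in capitals.
Slc7a1 (chr12:11664450-11664473, plus strand): cgcgcggcTGATGAAAccggctcg
Slc1a4 (chr14:98761782-98761805, minus strand): ctccagcgTTGCATCAtccagcca
Slc38a1 (chr7:129681528-129681551, minus strand): ggaaactcTGATGCAAccaaccag
The core begins 30 bases before the start of Slc7a1, 235 before that of Slc1a4, where it lies on the opposite strand, and 142 before that of Slc38a1. Slc38a1 was not higher at any time point.

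The E-box CACGTG, which reads the same on both strands and is bound by Myc and TFEB family factors, was found in 7 of the 41 members (17.1%) and in 7.08% of genes. The 3 of them that were higher at 4 hr and have large or small neutral amino acids as substrates are printed.
Slc7a5 (chr19:66872578-66872599, minus strand): atacgctcCACGTGcttcaaca
Slc43a1 (chr3:90327223-90327244, plus strand): aggcgagtCACGTGtgcatgaa
Slc1a4 (chr14:98761569-98761590, minus strand): aagttcctCACGTGctgctgct
It begins 179, 91 and 20 bases before the respective starts, and overlaps none of the cores above. The others were Slc1a6, which was also higher at 4 hr, and Slc36a1, Slc38a7 and Slc7a14, which were not called against 0 hr. The antioxidant response element core (TGACNNNGC) was also searched for, and was found in 8 of the 41 members (19.5%) and in 13.1% of genes. Its holders were Slc7a1, which was higher at 4 hr, and Slc38a2, Slc3a1, Slc6a6 and Slc7a7, each called lower at some time point. The remaining ones, Slc36a1, Slc3a2 and Slc6a11, were not called against 0 hr. All these matches are a description of the letters in the windows.

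Among the glutamate carriers Slc1a1 (EAAC1, which also takes up cysteine) was lower at every time point. It read 7.94 and 8.10 at 0 hr, 7.58 and 7.51 at 2 hr, 6.52 and 6.42 at 4 hr, 6.38 and 6.15 at 12 hr, and 6.56 and 6.34 at 24 hr. The 2 hr arrays were below the reference and the later ones lower still, without overlap. The falls were 2.93-fold at 4 hr (-1.55 ± 0.12, SE, adjusted p = 7.17e-05), 3.37-fold at 12 hr (adjusted p = 5.93e-05) and 2.96-fold at 24 hr (adjusted p = 8.77e-05), and a second probe set was lower at all 4 time points as well. The smaller 2 hr fall of 1.39-fold (adjusted p = 0.0267) was lost without any single array of 0 or 2 hr (0.0627 to 0.170) and with the Actb covariate (-0.32, adjusted p = 0.320).

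Slc1a2 (GLT-1) read 4.82 and 4.58 at 0 hr, 4.85 and 4.78 at 2 hr, 4.79 and 4.62 at 4 hr, 5.63 and 5.17 at 12 hr, and 5.41 and 5.08 at 24 hr. Early arrays overlapped the reference and late arrays lay above it, and the 12 hr difference was called (1.62-fold, 0.70 ± 0.17, SE, adjusted p = 0.0217), while its other probe set was not (0.11, and 0.41 with the mean of both, adjusted p = 0.0212). The call was lost without either 0 hr array or 12 hr replicate 1 (0.0529 to 0.154). The 24 hr difference of Slc1a2 was not called (0.54, adjusted p = 0.0574). Several alternatives called it, among them a replicate block (adjusted p = 0.0132) and the mean of both probe sets (0.34, adjusted p = 0.0404). Slc1a6 (EAAT4), with array signals between 3.64 and 4.09, was called higher at 4 hr (0.32, adjusted p = 0.0441). This held without either 2 hr array or 4 hr replicate 1 and was lost without any other (0.0657 to 0.248). It was lost too with quantile normalization (0.33), array quality weights and a fit of the compared groups alone (adjusted p 0.0504 to 0.103), and with the Actb covariate (0.20, adjusted p = 0.309). Slc1a3 (GLAST), a glial glutamate carrier, read 7.87 and 7.38 at 0 hr and between 6.61 and 7.68 on the other arrays, and was not called. The heavy chain Slc3a1 read 5.42 and 5.30 at 0 hr and 5.03 and 4.69 at 2 hr, where it was called lower (-0.50, adjusted p = 0.0293). Without 2 hr replicate 2 this became -0.33, and the call was lost without that array, either 0 hr array or either 12 hr array (0.0535 to 0.175). The Actb covariate gave -0.17 (adjusted p = 0.536), and a fit of the 0 and 2 hr arrays alone an adjusted p of 0.0806. Its cystine and dibasic amino acid partner Slc7a9 lay between 3.83 and 4.30 and was not called.

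In the fit of all 10 arrays the sodium-coupled neutral amino acid carriers of the Slc38 family were called in 1 direction only against 0 hr. Of 9 members 1, 2, 3 and 5 were lower at 2, 4, 12 and 24 hr, where 8.88%, 11.9%, 10% and 10.9% of all probe sets were, and none was higher at any of these times, by limma after adjustment or at an unadjusted p under 0.05. The median log2 difference of the 9 was -0.18, -0.16, -0.15 and -0.38 at the 4 times. Slc38a4 (SNAT4), which also carries cationic amino acids, read 10.02 and 9.99 at 0 hr, 8.80 and 8.88 at 2 hr, 7.92 and 8.03 at 4 hr, 8.27 and 8.66 at 12 hr, and 7.59 and 7.23 at 24 hr. The 8 later arrays were all below the reference arrays. It was 2.24-fold lower at 2 hr (-1.17 ± 0.15, SE, adjusted p = 0.00158), 4.08-fold at 4 hr (adjusted p = 6.50e-05), 2.91-fold at 12 hr (adjusted p = 0.000297) and 6.03-fold at 24 hr (adjusted p = 3.13e-05), and these calls held whichever array was left out.

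Slc38a3 (SNAT3), a glutamine carrier, read 9.86 and 9.98 at 0 hr, 9.93 and 10.12 at 2 hr, 8.46 and 9.0 at 4 hr, 8.65 and 8.47 at 12 hr, and 8.75 and 8.72 at 24 hr. Arrays at 0 and 2 hr overlapped, and from 4 hr on all were lower. The falls were 2.28-fold at 4 hr (-1.19 ± 0.17, SE, adjusted p = 0.00126), 2.57-fold at 12 hr (adjusted p = 0.000823) and 2.27-fold at 24 hr (adjusted p = 0.00158), and they held without any single array. Slc38a10 was lower at 12 hr (-0.83, adjusted p = 0.00103) and at 24 hr (-0.44, adjusted p = 0.0184), the second being lost without 0 hr replicate 1 or 24 hr replicate 1 (0.107 to 0.143) and with the Actb covariate (-0.42, adjusted p = 0.109).

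Slc38a2 (SNAT2), a carrier that many cells raise when amino acids are short or the medium is hypertonic, changed by less than these. It read 12.06 and 12.10 at 0 hr, 11.91 and 11.85 at 2 hr, 11.99 and 12.02 at 4 hr, 11.89 and 11.97 at 12 hr, and 11.59 and 11.73 at 24 hr. All later arrays lay below the reference arrays, by little until 24 hr. The 24 hr fall was 1.34-fold (-0.42 ± 0.09, SE, adjusted p = 0.0104) and was lost without either 0 hr array or 24 hr replicate 1 (0.0609 to 0.0757), and with the Actb covariate (-0.44, adjusted p = 0.0523). Slc38a1 (SNAT1) was lower at 24 hr (-0.38, adjusted p = 0.0488), which held without a 4 or a 12 hr array and was lost without any other (0.0567 to 0.198) and with arrays centred on their medians (-0.36, adjusted p = 0.0565). The Actb covariate gave -0.57 (adjusted p = 0.0300). Neither other probe set of Slc38a1 was called at 24 hr (-0.54, adjusted p = 0.0596, and -0.03, adjusted p = 0.884). Slc38a5, Slc38a6, Slc38a7 and Slc38a9, the last a lysosomal arginine sensor, were not called against 0 hr. In a limma fit of the compared groups alone Slc38a7 was called higher at 12 hr (0.42, adjusted p = 0.0251). That call also arose with array quality weights (adjusted p = 0.0304) and without the 2 and 4 hr arrays (adjusted p = 0.0217).

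In the Slc6 family the calls against 0 hr were falls, apart from the rise of Slc6a3 at 12 hr. Slc6a6 (TauT), the taurine carrier, read 10.69 and 10.62 at 0 hr, 10.08 and 9.67 at 2 hr, 10.45 and 10.41 at 4 hr, 10.41 and 10.64 at 12 hr, and 9.72 and 9.82 at 24 hr. The 2 and 24 hr arrays were clearly below the reference, and the 12 hr arrays overlapped it. It was 1.72-fold lower at 2 hr (-0.78 ± 0.14, SE, adjusted p = 0.00674) and 1.85-fold at 24 hr (-0.89, adjusted p = 0.00279), and a second probe set was called at both times (-0.95 and -0.93). The 2 hr call was lost without 0 hr replicate 1 (-0.75, adjusted p = 0.0576) and with the Actb covariate (-0.61, adjusted p = 0.125). Slc6a9 (GLYT1), a glycine carrier, read 8.03 and 8.07 at 0 hr, 7.55 and 7.43 at 2 hr, 7.75 and 8.08 at 4 hr, 8.19 and 8.29 at 12 hr, and 7.47 and 7.60 at 24 hr. The 2 and 24 hr arrays lay below the reference and the 12 hr arrays above it. It was low at the same times as Slc6a6, at 2 hr by -0.56 (adjusted p = 0.0133) and at 24 hr by -0.52 (adjusted p = 0.0157). Both calls were lost without either 0 hr array, and also without 2 hr replicate 2 (0.0595 to 0.0851 at 2 hr) or 24 hr replicate 1 (0.0768 to 0.0948 at 24 hr), and with the mean of its probe sets (-0.24 and -0.35).

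Slc6a15 (B0AT2), a carrier of branched-chain amino acids and proline, was lower from 2 to 12 hr and not at 24 hr. It read 9.74 and 9.70 at 0 hr, 8.92 and 9.28 at 2 hr, 8.53 and 8.42 at 4 hr, 9.25 and 9.26 at 12 hr, and 9.98 and 9.80 at 24 hr. Arrays at 2, 4 and 12 hr were below the reference and those at 24 hr slightly above it. It was 2.37-fold lower at 4 hr (-1.25 ± 0.12, SE, adjusted p = 0.000263), which held without any single array. The falls at 2 hr (-0.62, adjusted p = 0.0111) and 12 hr (-0.46, adjusted p = 0.0322) were lost without either 0 hr array, the second also without either 12 hr array (0.0624 to 0.0780, and 0.126 to 0.156). With the Actb covariate the 2 hr fall was not called either (-0.68, adjusted p = 0.0793). Slc6a8 (CRT), the creatine carrier, was lower at 12 hr (-0.50, adjusted p = 0.0122) and 24 hr (-0.61, adjusted p = 0.00446), with 2 arrays of each below both reference arrays. Its other probe set was called lower at 24 hr (-0.45, adjusted p = 0.0269) but not at 12 hr (-0.19, adjusted p = 0.343). The 12 hr call was lost without either 0 hr array or 12 hr replicate 1 (-0.51 to -0.42).

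Slc6a17 (NTT4), a vesicular neutral amino acid carrier, read 6.50 and 6.94 at 0 hr, 6.73 and 6.05 at 2 hr, 7.05 and 7.01 at 4 hr, 5.90 and 5.64 at 12 hr, and 6.51 and 6.58 at 24 hr. Only the 12 hr arrays were both below the reference arrays. It was 1.93-fold lower at 12 hr (-0.95 ± 0.22, SE, adjusted p = 0.0167), and none of its 4 other probe sets was called at that time. The call was lost without 0 hr replicate 2 or either 12 hr array (0.0522 to 0.130), and with the mean of its 5 probe sets (-0.22, adjusted p = 0.162). Slc6a3, the dopamine carrier, which is in the family by sequence and not by substrate, read 5.33 and 5.36 at 0 hr, 5.53 and 5.49 at 2 hr, 5.55 and 5.46 at 4 hr, 5.68 and 5.64 at 12 hr, and 5.41 and 5.48 at 24 hr. All later arrays were above the reference, those at 12 hr the most. It was called at 12 hr (0.32, adjusted p = 0.0266), a call not shared by its other probe set (0.10) and lost without any single array of 0 or 12 hr (0.103 to 0.149), as it was with the mean of both probe sets (0.21, adjusted p = 0.0769). Not called at any time were the noradrenaline and serotonin carriers Slc6a2 and Slc6a4, the GABA carriers Slc6a11 and Slc6a13, the glycine carrier Slc6a5, the proline carrier Slc6a7, and Slc6a14, Slc6a18, Slc6a20a and Slc6a20b. The 3 proton-coupled carriers Slc36a1, Slc36a2 and Slc36a3 were not called either, with differences from 0 hr between -0.03 and 0.11 and none past an unadjusted p of 0.05, nor was Slc7a6os.

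The step from 2 to 4 hr and that from 12 to 24 hr are comparisons in which neither side is the 0 hr reference. Between 2 and 4 hr 4 members rose and 4 fell, beside 2.24% and 1.50% of probe sets. Slc7a5 (1.55 ± 0.17, SE, adjusted p = 0.00281), Slc7a3 (1.16), Slc1a5 (0.74) and Slc1a4 (0.72) were higher at 4 hr, and Slc38a3 (-1.29, adjusted p = 0.00519), Slc1a1 (-1.08, adjusted p = 0.00281), Slc38a4 (-0.87) and Slc6a15 (-0.63) were lower. A limma fit of the 2 and 4 hr arrays alone called 0 higher and 0 lower, with 9 and 4 at an unadjusted p under 0.05, and the methods' analysis of variance gave 2 and 4 at an unadjusted P. Without 2 hr replicate 2 the calls of Slc7a3, Slc1a5, Slc1a4, Slc38a4 and Slc6a15 were lost (0.80, 0.49, 0.73, -0.83 and -0.45). The calls of Slc38a4 also needed 4 hr replicate 1 (-0.81, adjusted p = 0.0768), those of Slc7a3 and Slc1a5 were lost without any array but 2 hr replicate 1, and that of Slc6a15 without any array but 2 hr replicate 1 and the 24 hr arrays. Array quality weights ended the calls of Slc7a3, Slc1a5, Slc1a4, Slc38a4 and Slc6a15 (adjusted p 0.0569 to 0.163), and that of Slc1a5 was lost with quantile normalization (0.72, adjusted p = 0.0561) and the Actb covariate (0.67, adjusted p = 0.0529).

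Between 12 and 24 hr 2 members rose and 4 fell, beside 2.22% and 2.12% of probe sets. Slc1a4 (0.89 ± 0.12, SE, adjusted p = 0.00654) and Slc6a15 (0.63) were higher at 24 hr, and Slc7a3 (-2.82 ± 0.24, SE, adjusted p = 0.00130), Slc38a4 (-1.05), Slc6a6 (-0.76) and Slc6a9 (-0.70) were lower. Of these calls that of Slc7a3 held whichever array was left out. The call of Slc1a4 was lost without either 12 hr array (0.83 and 0.94, adjusted p 0.0593 to 0.0637) and that of Slc38a4 without 12 hr replicate 2 or 24 hr replicate 2 (0.0517 to 0.0760). Those of Slc6a6 and Slc6a9 were lost without any array of 12 or 24 hr (0.0605 to 0.186), and that of Slc6a15 without any array but those of 2 and 4 hr (0.0602 to 0.177). With the Actb covariate the calls of Slc6a15 (0.60, adjusted p = 0.0860) and Slc6a6 (-0.65, adjusted p = 0.0805) were lost. Other members were called for this step only in alternatives. Without the 2 and 4 hr arrays limma called Slc7a7 (-0.68, adjusted p = 0.0125), Slc7a8 (-0.78, 0.0197), Slc3a2 (-0.37, 0.0429) and Slc1a5 (-0.48, 0.0468) lower at 24 hr. That fit called Slc6a17 higher (0.77, 0.0255).

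Over the late phase, the mean of 12 and 24 hr, against the early phase, the mean of 2 and 4 hr, 10 members were higher and 13 lower, beside 19.9% and 19.3% of probe sets. The largest falls from early to late were those of Slc7a1 (-1.69 ± 0.14, SE, adjusted p = 4.33e-05), Slc7a8 (-1.38 ± 0.14, SE, adjusted p = 0.000100) and Slc7a11 (-1.12 ± 0.20, SE, adjusted p = 0.00229). Slc1a4 (0.79, adjusted p = 0.000159) and Slc6a15 (0.79, adjusted p = 0.000190) rose most, followed by Slc1a5 (0.63) and Slc1a2 (0.56). Slc3a2 was lower late than early (-0.36 ± 0.08, SE, adjusted p = 0.00527). In this comparison the call of Slc6a11 (0.24) was lost without 12 hr replicate 1 (adjusted p = 0.0519) and that of Slc6a17 (-0.55) without 12 hr replicate 2 or 24 hr replicate 1 (0.0584 to 0.0767) and with the mean of its probe sets (-0.11, adjusted p = 0.235). Those of Slc1a6 (-0.20), Slc38a7 and Slc7a4 were each lost without any of 6 or more single arrays (0.0546 to 0.128), and the difference of Slc38a7 moved from 0.42 to 0.26 without 4 hr replicate 1 and that of Slc7a4 from 0.31 to 0.21 without 2 hr replicate 2. The Actb covariate (-0.15 and 0.23, adjusted p = 0.139 and 0.0990) and a fit of the compared groups alone (0.0675 and 0.0560) ended the calls of Slc1a6 and Slc7a4, and array quality weights that of Slc1a6 (0.0704). With the mean of their probe sets the differences of Slc7a1 and Slc1a2 were -0.93 and 0.35, both still called.

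Time courses of some members resembled each other over the 5 means, which is a description of 5 points with the same arrays behind each gene. Closest to Slc7a11 among the 53 were Slc6a8 (Pearson's r = 0.98), Slc6a13 (0.94) and Slc38a2 (0.90). The r compares shape and not size. Slc6a13 hardly moved and was not called, with log2 differences from 0 hr of -0.04, -0.04, -0.11 and -0.11 (SE 0.15) at 2, 4, 12 and 24 hr. Slc6a6 was most like Slc7a3 (0.98), Slc6a9 (0.93) and Slc38a2 (0.87), the first pair and Slc6a9 being low at 2 and 24 hr. Slc38a2 ran closest to Slc38a1 (0.96), Slc7a3 (0.91) and Slc7a11 (0.90).

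Genes that sense amino acid supply or use it were called at the same hours, and their lists are given by limma counts, with the count at an unadjusted p under 0.05 where a count is 0. Beside them, 8.61%, 11.9%, 8.94% and 9.29% of all probe sets were higher and 8.88%, 11.9%, 10% and 10.9% lower at 2, 4, 12 and 24 hr. In the amino acid response, where Atf4 raises genes of amino acid synthesis and import, 26 of 27 listed genes were measured. Of these 8 were higher and 4 lower at 2 hr, 12 and 1 at 4 hr, 6 and 0 (1 unadjusted) at 12 hr, and 3 and 6 at 24 hr. The largest changes were those of Chac1, which degrades glutathione (4.37 at 2 hr and 4.25 at 4 hr), the factor Atf3 (3.01 at 2 hr) and Trib3, a feedback inhibitor (2.43 at 4 hr). Asns, asparagine synthetase, singled out after its values were seen, was lower at 2 hr (-1.58) and 24 hr (-1.95), times at which Slc7a3 and Slc6a6 were low too. Of 19 cytosolic aminoacyl-tRNA synthetases (20 listed), which load amino acids onto tRNA, 6, 10, 6 and 1 were higher at 2, 4, 12 and 24 hr. A single one was lower, at 4 hr, with 0 at the other times also at an unadjusted p. Among them Cars1 was higher by 2.16, Yars1 by 1.28 and Aars1 by 1.10 at 4 hr.

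In the mTORC1 amino acid sensing list (33 of 36 measured) 2 were higher and 8 lower at 2 hr, 3 and 10 at 4 hr, 5 and 7 at 12 hr, and 1 and 7 at 24 hr. The mTOR inhibitor Deptor was lower at 2 and 4 hr (-0.46 and -1.66) and higher at 12 and 24 hr (0.56 and 0.95), the leucine sensor Sesn1 was lower at all 4 times (-1.37, -1.49, -1.17 and -0.81), and Sesn3, of the same family, was lower at 24 hr (-1.31). Among 15 of 16 genes of glutathione synthesis and NRF2 targets, 3 were higher and 2 lower at 2 hr, 3 and 3 at 4 hr, 2 and 2 at 12 hr, and 1 and 3 at 24 hr. Of these Srxn1 (3.28 at 2 hr) and Hmox1 (2.17 at 4 hr) rose, and Ggt1, which splits glutathione outside the cell, was lower at 24 hr (-2.05), as was Slc7a11.

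The osmotic response list held 7 of 8 genes, with 1, 2, 1 and 0 (0 unadjusted) higher and 0 (1 unadjusted), 0 (0 unadjusted), 2 and 3 lower at the 4 time points. Aqp1, a water channel, was lower at 24 hr (-1.96), the chaperone Hspa4l was higher at 4 hr (1.32), and Nfat5, the factor that raises osmolyte carriers in hypertonic medium, was lower at 12 and 24 hr (-0.81 and -0.95). Of 7 genes of taurine and cysteine metabolism 0 (2 unadjusted), 1, 2 and 1 were higher and 0 (0 unadjusted), 1, 1 and 1 lower. Here Cbs, which leads to cysteine, was at 1.11 at 24 hr, Csad, of taurine synthesis, at 0.82 at 12 hr and Cdo1, a cysteine dioxygenase, at -0.57 at 12 hr. Glutamine and glutamate metabolism had 9 of 10 genes measured, 1, 0 (1 unadjusted), 2 and 0 (1 unadjusted) of them higher and 1, 2, 1 and 1 lower. Glul, glutamine synthetase, was at -1.23 and the glutaminase Gls2 at -0.65 at 4 hr. Of 12 measured among 13 other carriers of amino acids and related solutes, 0 (1 unadjusted), 2, 1 and 1 were higher and 4, 4, 2 and 2 lower. The mitochondrial carriers Slc25a12 (aspartate and glutamate, -1.50 at 12 hr) and Slc25a15 (ornithine, -1.05 at 4 hr) changed most among them.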

How the data were processed

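RNA of 10 explant cultures, biological duplicates of 5 time points, was amplified and hybridized to Affymetrix rat arrays. The authors normalized the arrays by RMA (version not given in the sources used here) and deposited linear intensity values, which were taken to log2 without further normalization. After 57 array controls were left out 31042 probe sets were tested, of which 20826 carry a single symbol, 436 several and 9780 none in the platform annotation. Members and lists were chosen with earlier results of these data known. A mean per time point was fitted with lmFit of limma 3.58.1 (R 4.3.3) to all 10 arrays, with 5 residual and 3.69 prior degrees of freedom and a prior SD of 0.116. Variances were moderated with eBayes and p-values adjusted over all probe sets. Each SE comes from that fit, and where a time point kept a lone array, its spread was taken from the other groups. The precision is limited by having only 2 arrays per time point. The procedure was tested on simulated data.

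Values on every array are given for the 5 largest rises and falls among the calls at each time, whose arrays both lay on one side of the reference, for Slc3a2 and its partners, for Slc6a6 and Slc38a2, and for the 3 members brightest at 0 hr. From other lists the 3 largest called changes are named. As alternatives, arrays were quantile normalized or centred on their medians, the dimmest 1 in 3 probe sets were dropped, the prior was made trended and robust, and the p was left unadjusted. Dropping the dimmest probe sets left 32 of the 53 members. Slc1a2, Slc1a6, Slc3a1, Slc43a1 and Slc7a4, each called at some time point, were not among them, so their calls were not tested in that fit. A fold change of at least 1.25, all probe sets of a gene averaged, a fit of the compared groups alone, an analysis of variance at an unadjusted P as in the study's methods, a replicate block and each array left out were tried as well. Chosen after seeing the data were weights for array quality, a covariate for the Actb ratio, and a fit that dropped the 2 and 4 hr arrays. Start windows came from RefSeq (GRCr8). Plots were made in Python 3.11.15 with matplotlib 3.10.9.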

Additional observations from a re-analysis of the deposited data

Results flagged for a closer look

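Slc7a8 differed between the early and the late phase under the same contrast with 0 hr. Its log2 difference from 0 hr was 0.82 at 2 hr, 0.49 at 4 hr (not called), -0.33 at 12 hr (not called) and -1.12 at 24 hr, and the late mean was lower than the early mean by limma (-1.38 ± 0.14, SE, adjusted p = 0.000100). The 4 early arrays lay above and the 4 late arrays below both reference arrays. The late fall kept its direction and its call under every alternative run for this gene. The study's array names put the phases in separate runs, and the part of the run in this difference cannot be told apart from that of time.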

How the results depend on the processing

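No member changed direction among its calls under any alternative. At an unadjusted p under 0.05 the members higher were 6 at 2 hr, 8 at 12 hr, 8 at 24 hr, 9 for 4 against 2 hr and 5 for 24 against 12 hr, and the members lower were 9 at 4 hr, 7 for 4 against 2 hr and 13 for 24 against 12 hr. The methods' analysis of variance gave 7 higher at 2 hr, 2 higher for 4 against 2 hr, and 6 higher and 8 lower for 24 against 12 hr. A fit of only the groups compared gave 9 higher at 12 hr, 7 at 24 hr, and 0 higher and 0 lower for 4 against 2 hr (9 and 4 unadjusted). Array quality weights gave 10 higher at 12 hr, 7 at 24 hr, 1 higher and 2 lower for 4 against 2 hr, and 7 lower for 24 against 12 hr. With the Actb covariate 1 was higher and 3 lower at 2 hr, 3 higher at 4 hr and 1 higher for 24 against 12 hr. Without the 2 and 4 hr arrays 8 were higher at 12 hr and 8 lower for 24 against 12 hr.

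Without 1 array the counts of higher and lower members ranged from 1 to 4 and 2 to 7 at 2 hr, 3 to 8 and 4 to 7 at 4 hr, 2 to 7 and 4 to 8 at 12 hr, and 3 to 6 and 8 to 14 at 24 hr. They ranged from 1 to 6 and 2 to 5 for 4 against 2 hr, 0 to 3 and 1 to 6 for 24 against 12 hr, and 7 to 13 and 11 to 14 for late against early. The 0 arose in limma fits without either 12 hr array (4 and 3 higher unadjusted). Equal replicate numbers were taken to pair the samples only where every pair of time points had deviations correlated at over 0.1, and they did not (r 0.33 for 2 and 4 hr, and between -0.15 and -0.00 otherwise). With a replicate block 2 members were higher and 3 lower for 4 against 2 hr, the calls of Slc7a3 (adjusted p = 0.0556), Slc1a5 (0.0551) and Slc6a15 (0.0501) being lost, as were those of Slc1a6 at 4 hr (0.0604) and for late against early (0.0656). With 2 arrays per time point small differences may go uncalled, and cultures sharing a litter or day are not known.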
